A study of Mus musculus with 8 samples.

Results

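A set of 33 genes that mark the fibroblasts of the meninges and the matrix they lay down was followed in the hippocampus of Muta Mouse, a transgenic mouse line used for mutagenicity tests, mouse by mouse, as a check on how much meningeal tissue came along with the dissected hippocampus. The genes were taken from a list of symbols. Each was found through the RefSeq accession of its probe, and the probe brightest in Cy5 stood for a gene. All 33 had a tested probe, out of 15086 named genes with one.

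The 8 samples were total RNA from the hippocampi of 8 adult males, 4 given olive oil as the vehicle control and 4 given benzo[*a*]pyrene (BaP), a polycyclic aromatic hydrocarbon, at 70 mg/kg bw per day. The gavage was repeated on 3 days and the tissue was taken 24 hr after the last one. Every mouse had its own array, on which its RNA, labeled with Cy5, was set against a universal mouse reference RNA carrying Cy3, and dyes were not swapped. The log2 ratio given for a gene is that of Cy5 over Cy3 after background correction and loess normalization, so a value of 1 stands for a 2-fold excess over the reference. The 8 arrays shared 1 slide, with control and BaP mice 1 and 2 in its first row and mice 3 and 4 in its second. For the mice of the second row, the title and the source name of the labels give opposite groups, and the titles were followed, because the sample ids in the labels form 1 run of numbers for the mice titled control and another for those titled BaP. Of 59305 spots per array, 56.6% to 67.4% exceeded background clearly in Cy5. Outlier spots numbered 1483 for control mouse 1 and 310 to 371 for the rest.

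The meninges are the layered membranes around the brain, and their fibroblasts secrete the collagens, small proteoglycans and growth factor binding proteins that make up most of their matrix. The arachnoid barrier and its neighbors also carry transporters and gap junctions, and meningeal cells are a known source of retinoic acid for the brain. Neurons and glia of the hippocampus make little of most of these proteins, so RNA for them in a hippocampal sample can come from attached pia, from the fibroblasts around larger vessels or from the stroma of the choroid plexus, which lies against the hippocampus.

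Promoter sequences of RefSeq (GRCm38.p6) were found for 24 of the 33 genes, with 32 start sites. The 250 bases before the start are printed for 4 genes that stand for the patterns described below, with matches to the motifs searched in capitals. *Aldh1a2* (chr9:71215539-71215788, plus strand) and *Ogn* (chr13:49607765-49608014, plus strand) varied together between mice of both groups. *Igfbp2* (chr1:72824230-72824479, plus strand, the first of its 2 listed starts) was highest in another mouse, and *Col6a1* (chr10:76726045-76726294, minus strand) varied little.
*Aldh1a2*: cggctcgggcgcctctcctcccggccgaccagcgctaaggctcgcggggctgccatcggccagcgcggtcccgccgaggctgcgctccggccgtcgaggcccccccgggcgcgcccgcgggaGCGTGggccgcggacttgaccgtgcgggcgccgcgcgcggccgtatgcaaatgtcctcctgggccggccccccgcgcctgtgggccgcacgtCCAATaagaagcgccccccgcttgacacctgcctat
*Ogn*: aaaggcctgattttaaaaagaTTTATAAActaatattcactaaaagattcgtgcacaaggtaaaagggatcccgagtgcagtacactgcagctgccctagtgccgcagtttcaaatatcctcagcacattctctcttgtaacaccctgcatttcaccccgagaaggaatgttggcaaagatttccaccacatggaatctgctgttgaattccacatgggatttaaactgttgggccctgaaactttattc
*Igfbp2*: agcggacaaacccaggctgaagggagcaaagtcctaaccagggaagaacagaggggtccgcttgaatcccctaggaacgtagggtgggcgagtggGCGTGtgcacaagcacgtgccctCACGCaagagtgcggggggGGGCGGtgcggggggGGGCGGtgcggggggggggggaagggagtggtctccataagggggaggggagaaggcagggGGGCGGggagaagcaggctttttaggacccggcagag
*Col6a1*: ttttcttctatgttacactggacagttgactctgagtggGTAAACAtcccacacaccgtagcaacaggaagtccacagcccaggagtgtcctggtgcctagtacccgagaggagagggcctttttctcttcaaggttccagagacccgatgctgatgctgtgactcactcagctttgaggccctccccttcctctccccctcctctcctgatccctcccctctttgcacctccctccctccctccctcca
Searched on both strands were a TATA box, spelled TATAAA, a second promoter element, spelled CCAAT, a GC box, spelled GGGCGG, a forkhead motif, spelled GTAAACA, and a core bound by the aryl hydrocarbon receptor, spelled GCGTG. The capitals in *Ogn* are TATAAA on both strands, overlapping each other. *Aldh1a2* had GCGTG and CCAAT, *Igfbp2* had 3 GC boxes and 2 matches of GCGTG, and *Col6a1* had GTAAACA. Of all 32851 promoters of the same length, 12.4% held TATAAA, 33.8% CCAAT, 32.7% GGGCGG, 3.17% GTAAACA and 28.2% GCGTG. Among the 32 windows of these genes, 3 held TATAAA, 8 CCAAT, 16 GGGCGG, 1 GTAAACA and 10 GCGTG. A match is given as letters in these windows and no more.

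RNA for the meningeal genes was measurable in all mice. Of the 33 genes, 31 were well above background in Cy5 on all 8 arrays. *Slc47a1* was so on 3 control arrays and 1 BaP array, and *Foxd1* on 3 arrays of each group. No spot of a member was saturated or had an outlier mark. Measured against the reference RNA, which pools many tissues or cell lines, 21 of the genes were below 0 in the mean of the control mice and 12 above. Collagens stood far under the reference, with *Col1a1* at -4.83 ± 0.36 (SD, n = 4) in control and -5.25 ± 0.40 (SD, n = 4) in BaP-exposed mice. Of the 5 barrier genes, 4 stood over it and *Slc47a1* under it, with the gap junction gene *Gjb2* at 3.70 ± 0.90 (SD, n = 4) in control and 3.46 ± 0.39 (SD, n = 4) in BaP-exposed mice, although its reference signal was well above background on 1 of the 8 arrays. Each such ratio is relative to the same gene in the reference, so ratios of different genes were not ordered.

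No gene of the set passed the test for a change with BaP, for which the threshold was an adjusted p of 0.05 together with a 1.5-fold difference. With limma's moderated test and Benjamini-Hochberg adjustment over all 32600 tested probes, 0 of the 33 passed, where 0.0092% of all probes did. The lowest adjusted p of a member was 0.515. At an unadjusted p of 0.05 or less, 4 members passed (12.1% of them), where 8.76% of all probes did. All 4, *Col6a1*, *Col5a1*, *Col6a2* and *Osr1*, were lower in BaP-exposed mice, and 4.23% of all probes passed in that direction. *Igfbp2* was the 1 member past 1.5-fold, with 1.02% of all probes past it. The groups did not overlap for 2 members (6.06%), *Col6a1* and *Osr1*, and for 4.94% of the 32002 probes with a value on all arrays. With 4 mice against 4, the exact permutation test cannot give a p below 0.0286. In bulk tissue, fewer cells of a type and less RNA per cell cannot be told apart.

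By the sign alone, 23 members were lower in BaP-exposed mice and 10 higher, while 51.2% of all probes were lower. The median log2 fold change of the members was -0.15, against -0.0043 over all probes. With each array's log ratios centred on their median, in place of loess, the median of all tested probes moved to 0.17 and 10 members were below 0, with a median of 0.08. Relative to all probes, the median of the members was then -0.09, and 21 members lay below the median of all probes, against 23 with loess. In the slide's first row alone 32 members were lower, with a median of -0.33, and in the second row alone 9 were lower, with a median of 0.18. Row 1 holds the mice whose labels do not conflict, and with groups from the source names 31 members were lower, with a median of -0.32. The plot of fold changes with their intervals shows how wide the latter are.

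**Figure D1:**
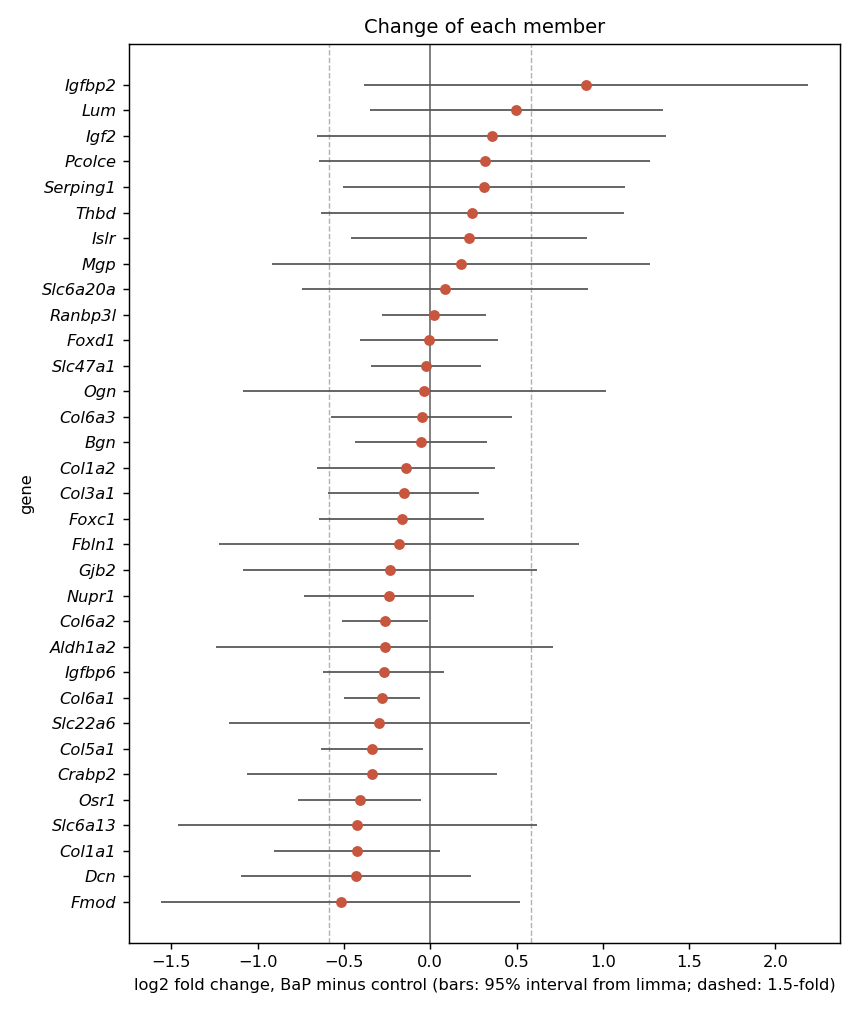
Log2 fold change of each of the 33 genes, BaP-exposed minus control mice (x axis), sorted by value, with the 95% interval from limma as bars and dashed lines at 1.5-fold. The values run from -0.52 for *Fmod* to 0.90 for *Igfbp2*, and the interval excludes 0 for *Osr1*, *Col5a1*, *Col6a1* and *Col6a2*.

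Most of these genes differed more between mice of the same group than between the groups. The SD of the log2 ratio within a group had a median of 0.551 over the members, against 0.151 over all probes with 8 values. Of the 33 members, 23 lay above the 95th percentile of all probes, which was 0.369, and 32 above their median. The share of a gene's variance that lay between control and BaP had a median of 5.82% for the members and 11.4% for all probes. By these medians, the larger part of the variance lay within groups for most probes of the array as well. For 27 members the fold change was smaller than the SD within the groups, a count that was not made over all probes. These are descriptions of 1 list of genes with no test of the list. The range of the Cy5 signal over the 8 arrays exceeded that of the Cy3 reference for 31 of the 33 genes. The exceptions were *Col6a1* and *Col6a2*. The median ranges were 1.43 and 0.439 on the log2 scale. These are not like measures, since Cy5 was quantile-normalized between arrays and Cy3 only centred on each array's median. The share of all probes with a wider range in Cy5 was not counted.

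**Figure D2:**
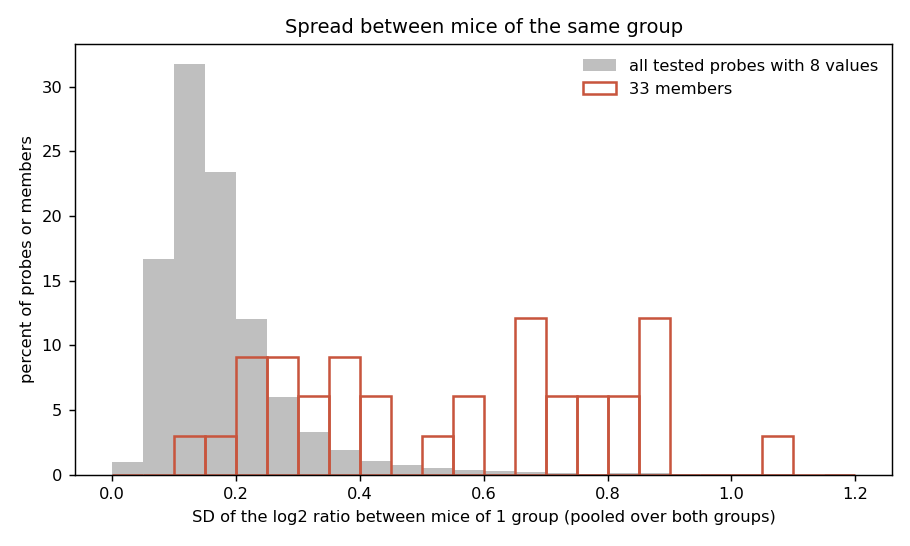
SD of the log2 ratio between mice of the same group, pooled over both groups (x axis), as a percent of all tested probes with 8 values (gray) and of the 33 genes (red outline). The median is 0.151 for all probes and 0.551 for the 33 genes, and values above the axis range are counted in the last bin.

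The differences between mice ran through most of the set at once. After the mean of each gene over the 8 mice was taken off, the median over the 33 genes was 0.25, -0.0029, 0.41 and -0.51 in control mice 1 to 4 and -0.54, -0.00094, -0.17 and 0.45 in BaP mice 1 to 4. BaP mouse 1 and control mouse 4 were thus low, and control mouse 3 and BaP mouse 4 high, so by title each group held 1 low and 1 high mouse. By source name, both low mice would be BaP-exposed, with 1 high mouse in each group. BaP mouse 1 was the lowest of all mice for 15 members and control mouse 4 for 12, where 11.1% and 12.5% of all probes had their lowest value there. Control mouse 3 was the highest for 13 members and BaP mouse 4 for 10, where 13.7% and 9.06% of all probes had their highest value there. Median centring in place of loess moved these counts: control mouse 4 was then the lowest for 29 members and BaP mouse 1 for 2, and BaP mouse 4 was the highest for 18 and control mouse 3 for 2. Of all probes, 53.2% then had their lowest value in control mouse 4 and 3.05% in BaP mouse 1, and 9.12% had their highest in BaP mouse 4 and 5.21% in control mouse 3.

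**Figure D3:**
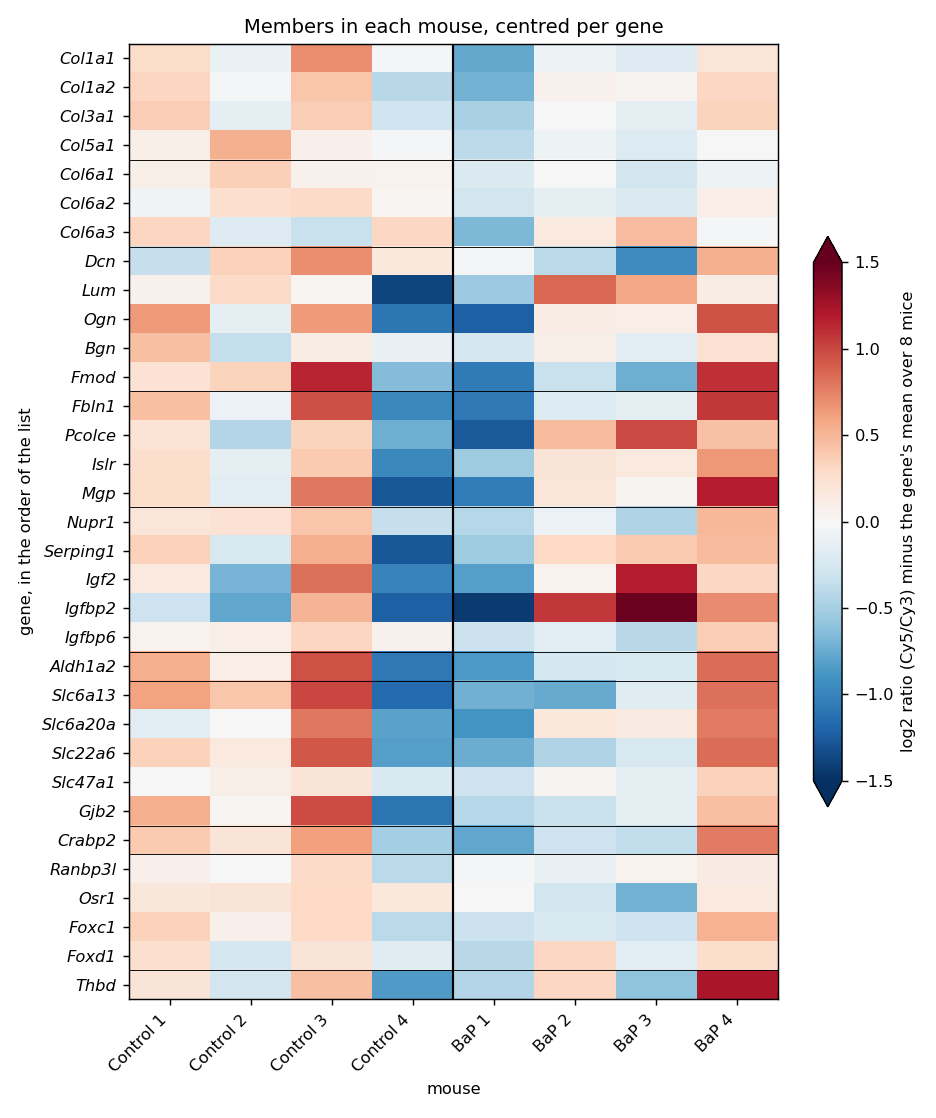
Log2 ratio of each of the 33 genes (rows, in the order of the list) in each of the 8 mice (columns), minus the gene's mean over the mice. Red is above and blue below that mean, colors end at 1.5 in both directions, and most rows are blue in control mouse 4 and BaP mouse 1 and red in control mouse 3 and BaP mouse 4.

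Between mice of the same group, all 12 pairs were compared gene by gene. BaP mouse 4 exceeded BaP mouse 1 in 33 of the 33 members, by a median of 0.95 on the log2 scale or 1.93-fold, while it was the higher of the pair for 48.4% of all probes. Control mouse 3 exceeded control mouse 4 in 32 members, by a median of 1.07 or 2.10-fold, against 51.5% of all probes, and *Col6a3* was the exception. Both mice of this second pair lay in the same row of the slide. Each of these pairs joins the highest and the lowest mouse of its group by the median over the same members. High counts were thus partly set by that choice, which the shares of all probes were not. The smallest median difference of a pair was 0.078, between BaP mice 2 and 3, but with median centring BaP mouse 2 was the higher in 4 members and in 11.4% of all probes, and the smallest was 0.040, between control mice 3 and 1. With median centring, Agilent's processed signals, the authors' log2 ratios or the Cy5 channel alone, BaP mouse 4 was above BaP mouse 1 in 32 or 33 members and control mouse 3 above control mouse 4 in 32. With median centring the shares of all probes in these pairs were 36.1% and 78.8%, so the latter pair then differed across the array as well.

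Among the fibrillar collagens, which form the tensile fibers of the membranes, *Col1a1* had log2 ratios of -4.77, -5.14, -4.35 and -5.06 in the control mice and -5.81, -5.11, -5.23 and -4.86 in the BaP-exposed mice. *Col1a2*, the other chain of type I collagen, had -3.21, -3.57, -3.12 and -3.94 in the control mice and -4.24, -3.47, -3.49 and -3.22 in the BaP-exposed mice. Both were lowest in BaP mouse 1 and highest in control mouse 3, with overlapping groups and log2 fold changes of -0.42 (standard error 0.22) and -0.14 (standard error 0.23). The type III chain *Col3a1* ran from -5.68 in BaP mouse 1 to -4.83 in control mouse 1, with a fold change of -0.15 (standard error 0.20). *Col5a1*, whose type V chain takes part in starting fibrils, had -4.42, -3.97, -4.43 and -4.52 in the control mice and -4.90, -4.59, -4.72 and -4.51 in the BaP-exposed mice. Control mouse 2 was the highest for this gene and BaP mouse 1 the lowest, and BaP mouse 4, at -4.51, was level with control mouse 4. Its log2 fold change was -0.34 (standard error 0.13), with an adjusted p of 0.538 in limma, and the exact permutation p was 0.0571. Relative to all probes it was -0.24 with median centring, and it was -0.16 in the Cy5 channel alone.

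Collagen VI, which forms beaded filaments, had the lowest median SD within groups of the groups of members, at 0.17 over its 3 genes. The SD of *Col6a3* alone was 0.41. *Col6a1* had log2 ratios of -2.01, -1.75, -2.04 and -2.05 in the control mice and -2.32, -2.10, -2.37 and -2.18 in the BaP-exposed mice. The groups did not overlap, but were as close as 0.044 between control mouse 4 and BaP mouse 2. The log2 fold change was -0.28 (standard error 0.099), with an adjusted p of 0.515 in limma, and the exact permutation p was 0.0286, the smallest this design allows. *Col6a2* had -3.21, -2.90, -2.87 and -3.12 in the control mice and -3.44, -3.30, -3.37 and -3.06 in the BaP-exposed mice, with a fold change of -0.26 (standard error 0.11), with an adjusted p of 0.557 in limma and groups that overlapped through BaP mouse 4. Both chains were lower with loess in either row of the slide and with the Cy5 channel alone (-0.22 and -0.17), and relative to all probes they stood at -0.16 and -0.16 with median centring. *Col6a3* did not share the pattern of the set: it had -4.34, -4.85, -5.00 and -4.35 in the control mice and -5.33, -4.51, -4.20 and -4.69 in the BaP-exposed mice, highest in BaP mouse 3 and low in control mouse 3.

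The small leucine-rich proteoglycans, which coat collagen fibrils, held both strong and weak followers of the mouse pattern. *Ogn*, the gene of osteoglycin, had log2 ratios of -2.20, -2.97, -2.20 and -3.92 in the control mice and -4.06, -2.73, -2.74 and -1.89 in the BaP-exposed mice. Control mouse 4 and BaP mouse 1 were the lowest pair, and the group means differed by -0.033 (standard error 0.47). *Fmod*, the gene of fibromodulin, had -0.63, -0.52, 0.29 and -1.51 in the control mice and -1.92, -1.18, -1.59 and 0.24 in the BaP-exposed mice. Its fold change of -0.52 (standard error 0.47) was the most negative of the set, with an SD of 0.95 among BaP-exposed mice. *Lum*, the gene of lumican, had 0.61, 0.83, 0.57 and -0.83 in the control mice and -0.0045, 1.41, 1.12 and 0.65 in the BaP-exposed mice, so control mouse 4 was alone at the bottom and BaP mice 2 and 3 were at the top. *Dcn*, the gene of decorin, had -0.90, -0.20, 0.15 and -0.40 in the control mice and -0.59, -0.96, -1.501 and -0.026 in the BaP-exposed mice, lowest in BaP mouse 3. *Bgn*, the gene of biglycan, ran from -3.27 in control mouse 2 to -2.46 in control mouse 1. The groups overlapped for all 5 genes, with fold changes of 0.50 (standard error 0.38) for *Lum*, -0.43 (standard error 0.30) for *Dcn* and -0.054 (standard error 0.17) for *Bgn*.

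The other matrix proteins had the widest spread, with a median SD within groups of 0.82 over 4 genes. *Mgp*, whose product keeps soft tissue from calcifying, had log2 ratios of 1.17, 0.74, 1.69 and -0.37 in the control mice and -0.16, 1.08, 0.94 and 2.08 in the BaP-exposed mice. From BaP mouse 1 to BaP mouse 4 it differed by 2.23 on the log2 scale, the widest gap of that pair, yet the group means differed by 0.18 (standard error 0.49). *Fbln1*, the gene of the matrix glycoprotein fibulin 1, had -0.35, -0.89, 0.16 and -1.77 in the control mice and -1.88, -1.01, -0.95 and 0.26 in the BaP-exposed mice, with a fold change of -0.18 (standard error 0.47). A second tested probe for *Fbln1* put the same mice at the top and the bottom, with a fold change of 0.0087. *Islr*, which encodes a leucine-rich repeat protein of fibroblasts, ran from -1.60 in control mouse 4 to 0.013 in BaP mouse 4, with a fold change of 0.23 (standard error 0.31). *Pcolce*, the enhancer of the enzyme that trims procollagen, had -2.77, -3.42, -2.65 and -3.72 in the control mice and -4.25, -2.51, -1.99 and -2.55 in the BaP-exposed mice, so that BaP mouse 3 was the highest and not BaP mouse 4. Its fold change was 0.31 (standard error 0.43), with overlapping groups, as for the other 3 genes.

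Insulin-like growth factor 2 and its binding protein were highest in BaP mouse 3. *Igfbp2* had log2 ratios of 0.33, -0.14, 1.15 and -0.58 in the control mice and -0.80, 1.71, 2.11 and 1.35 in the BaP-exposed mice. BaP mice 2, 3 and 4 were above every control mouse, and BaP mouse 1 was below every one. The log2 fold change of 0.90 (standard error 0.58), with an adjusted p of 0.661 in limma had a 95% interval from -0.39 to 2.19, and the exact permutation p was 0.314. Without BaP mouse 1 the fold change was 1.53, and without BaP mouse 3 it was 0.56. With groups from the source names it was -0.54. A second probe for *Igfbp2* gave 0.67 (standard error 0.49). *Igf2*, the growth factor itself, had 1.48, 0.64, 2.16 and 0.33 in the control mice and 0.50, 1.38, 2.51 and 1.64 in the BaP-exposed mice, with a fold change of 0.36 (standard error 0.45). For both genes control mouse 4 and BaP mouse 1 were the lowest pair, as in most of the set.

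*Igfbp6*, another binding protein with a preference for this growth factor, had a spread that was narrow only for this set. Its SD within groups was 0.26, against medians of 0.551 over the members and 0.151 over all probes. It had -0.85, -0.81, -0.58 and -0.84 in the control mice and -1.23, -1.06, -1.32 and -0.54 in the BaP-exposed mice, with a fold change of -0.27 (standard error 0.16). *Serping1*, the C1 inhibitor of the complement cascade, had 3.47, 2.87, 3.66 and 1.85 in the control mice and 2.58, 3.41, 3.51 and 3.59 in the BaP-exposed mice. Control mouse 4 was the lowest for *Serping1* and BaP mouse 1 the next, and the other 6 mice lay within 0.78 of each other. Its fold change was 0.31 (standard error 0.37). *Nupr1*, a stress-induced nuclear protein, ran from -4.01 in BaP mouse 3 to -3.05 in BaP mouse 4, with a fold change of -0.24 (standard error 0.22). The groups overlapped for all 3 genes.

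Both retinoic acid genes were lowest in control mouse 4 and BaP mouse 1 and highest in control mouse 3 and BaP mouse 4. *Aldh1a2*, the enzyme that makes retinoic acid from retinaldehyde, had log2 ratios of 2.52, 2.08, 2.93 and 0.90 in the control mice and 1.11, 1.71, 1.74 and 2.81 in the BaP-exposed mice. The mice spanned a 4.09-fold range, its lowest and highest both control mice, with group means of 2.11 ± 0.88 (SD, n = 4) in control and 1.84 ± 0.71 (SD, n = 4) in BaP-exposed mice. The log2 fold change was -0.26 (standard error 0.44), with an adjusted p of 0.88 in limma. *Crabp2*, which carries retinoic acid to its nuclear receptors, had 0.43, 0.23, 0.65 and -0.47 in the control mice and -0.74, -0.27, -0.32 and 0.82 in the BaP-exposed mice, with a fold change of -0.34 (standard error 0.33).

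Transporters and a gap junction gene of the arachnoid barrier came next. *Slc6a13*, a transporter of GABA and taurine, had log2 ratios of 2.70, 2.51, 3.11 and 0.93 in the control mice and 1.38, 1.34, 1.92 and 2.92 in the BaP-exposed mice. *Slc22a6*, an organic anion transporter, had 2.20, 1.99, 2.79 and 1.03 in the control mice and 1.11, 1.41, 1.61 and 2.69 in the BaP-exposed mice, and *Gjb2*, the gene of connexin 26, had 4.13, 3.61, 4.56 and 2.48 in the control mice and 3.16, 3.24, 3.43 and 4.03 in the BaP-exposed mice. In all 3 genes control mouse 4 was the lowest mouse and control mouse 3 the highest, so the control group spanned the BaP group. The order between them was not the same throughout, since BaP mouse 2 was below BaP mouse 1 for *Slc6a13* and control mouse 1 above BaP mouse 4 for *Gjb2*. *Slc6a20a*, a transporter of proline, had 1.56, 1.72, 2.52 and 0.93 in the control mice and 0.83, 1.88, 1.86 and 2.50 in the BaP-exposed mice, and *Slc47a1*, an efflux transporter of organic cations near background, ran from -1.57 in BaP mouse 1 to -0.91 in BaP mouse 4. The fold changes of the 5 genes lay between -0.42 for *Slc6a13* and 0.085 for *Slc6a20a*, each smaller than the SD within the groups. With Agilent's processed signals *Gjb2* stood at -0.66 and *Slc47a1* at -0.65.

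Transcription factors and the nuclear transport gene had a median SD within groups of 0.29. *Foxc1*, a forkhead factor that the growth of the meninges needs, had log2 ratios of -1.20, -1.47, -1.25 and -1.95 in the control mice and -1.87, -1.77, -1.86 and -1.03 in the BaP-exposed mice, and BaP mouse 4 stood apart from the other BaP-exposed mice. *Foxd1*, a forkhead factor near background on 2 arrays, ran from -2.32 in BaP mouse 1 to -1.59 in BaP mouse 2, with a fold change of -0.0071 (standard error 0.18). *Osr1*, a zinc finger factor of mesenchyme, had -2.29, -2.27, -2.17 and -2.31 in the control mice and -2.45, -2.74, -3.17 and -2.32 in the BaP-exposed mice. The control mice lay within 0.14 of each other and above every BaP-exposed mouse, although BaP mouse 4 was 0.0073 below the nearest control mouse. Its log2 fold change was -0.41 (standard error 0.16), with an adjusted p of 0.537 in limma, with an exact permutation p of 0.0286. Relative to all probes it was -0.30 with median centring, and it was -0.37 in the Cy5 channel alone. With groups from the source names the fold change of *Osr1* was 0.094. *Ranbp3l*, a Ran binding protein that acts in nuclear export, ran from 1.04 in control mouse 4 to 1.73 in control mouse 3, and *Thbd*, the surface anticoagulant thrombomodulin, had -1.66, -2.13, -1.41 and -2.71 in the control mice and -2.30, -1.54, -2.46 and -0.64 in the BaP-exposed mice.

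**Figure D4:**
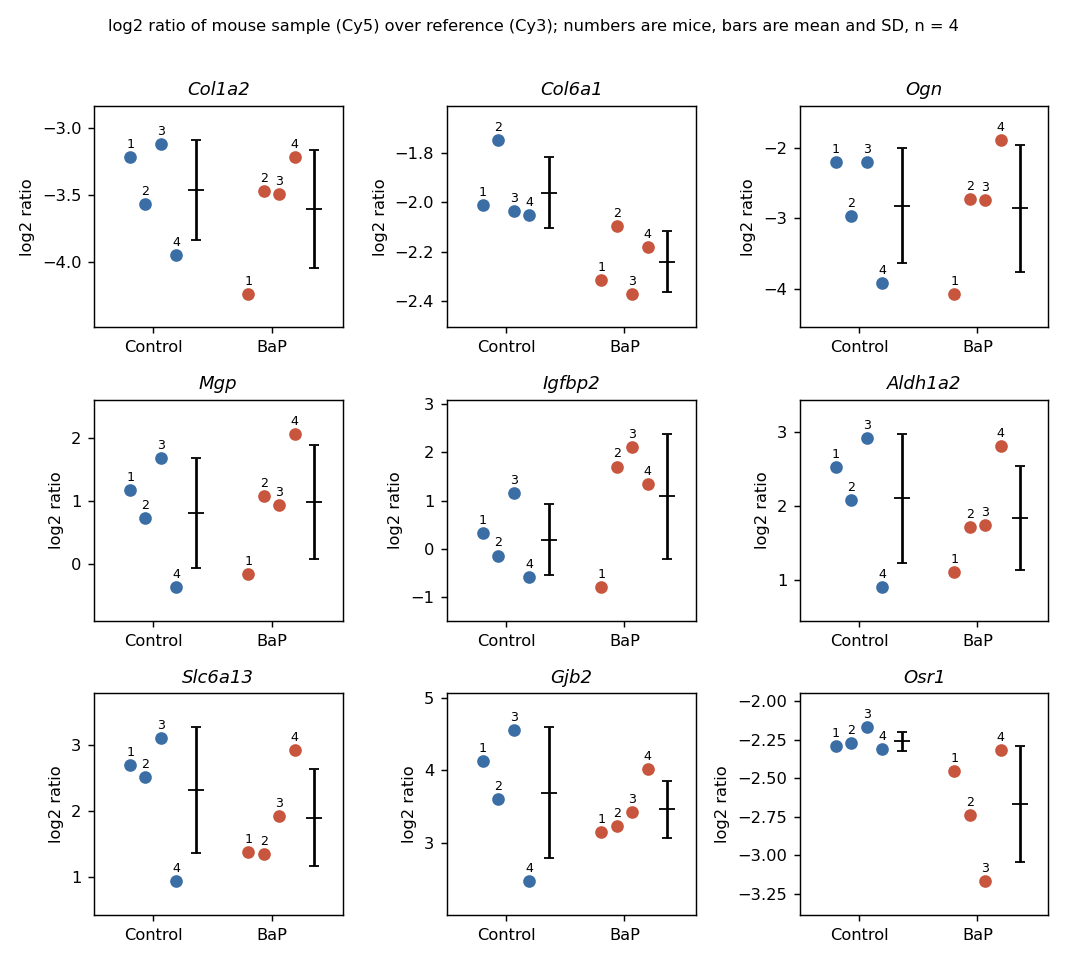
Log2 ratio (y axis) in each mouse for 9 genes of the set, control mice in blue and BaP-exposed mice in red, each point numbered by mouse, with mean and SD (n = 4) beside them. Control mouse 4 and BaP mouse 1 are the 2 lowest for *Ogn*, *Mgp* and *Aldh1a2*, *Igfbp2* is high in 3 of 4 BaP-exposed mice, and the groups of *Col6a1* and *Osr1* do not overlap.

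The count of 4 members with an unadjusted p of 0.05 or less depended on the processing and on single mice. It was 1 with median centring (where 18.6% of all probes passed), with Agilent's processed signals (7.95%) or with an F test without moderation (8.23%), 2 with Cy5 alone (7.82%) and 0 with groups from the source names (4.39%). With loess it was 0 without BaP mouse 3 (6.01%), 1 without control mouse 2 (7.23%), and 2 without BaP mouse 2 (5.31%) or control mouse 3 (9.18%). It was 6 without control mouse 4 (7.03% of all probes) and 10 without BaP mouse 4 (10.7% of all probes), with median fold changes over the members of -0.30 for both. The median was 0.023 without BaP mouse 1, -0.025 without control mouse 3 and -0.060 without control mouse 1. No member was called under any other setting run.

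Genes of other cells were read in the same mice, from lists of markers. A further list of 20 meningeal and fibroblast genes outside the set had 15 tested, 7 higher with BaP and 8 lower, at a median log2 fold change of -0.016, and -0.069 relative to all probes with median centring. *Dpt*, *Col13a1*, *Col15a1*, *Postn* and *Col12a1* were not tested. Their centred medians were 0.18, 0.011, 0.17 and -0.22 in control mice 1 to 4 and -0.28, 0.11, -0.10 and 0.17 in BaP mice 1 to 4, so the lowest mice were again control mouse 4 and BaP mouse 1. Of these genes *Fstl1*, a secreted glycoprotein, was at -0.29 (standard error 0.13), with an adjusted p of 0.569 in limma, *Foxc2* at -0.48 (standard error 0.31) and *Lox*, the enzyme that crosslinks collagen, at -0.28 (standard error 0.18). *Tbx18*, a factor of pial and mural cells, was at 0.013 (standard error 0.12).

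Macrophages that line the borders of the brain, which sit in the meninges and around vessels, had 6 of 7 markers tested, all 6 with a negative fold change, at a median of -0.23 and 0 at an unadjusted p of 0.05 or less, and with median centring all 6 lay below the median of all probes, at -0.23 relative to it. *Cd163* was not tested. Per mouse the list stood at 0.34, 0.0036, 0.30 and -0.13 in control mice 1 to 4 and -0.52, -0.0039, -0.15 and 0.12 in BaP mice 1 to 4. *Mrc1*, the mannose receptor, had 1.46, 1.48, 1.78 and 0.50 in the control mice and 0.43, 1.15, 1.18 and 1.30 in the BaP-exposed mice, lowest in BaP mouse 1 and control mouse 4. *Pf4*, a chemokine of these macrophages, was at -0.37 (standard error 0.17). For *Pf4*, *Cbr2* and *Ms4a7* the lowest was BaP mouse 1, but the next was BaP mouse 3, at -4.48, -2.41 and -2.95. Control mouse 4 was at -4.25, -2.14 and -2.86 for these genes.

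The epithelium of the choroid plexus, which makes the cerebrospinal fluid, followed another order. All 16 of its markers were tested and all 16 had a positive log2 fold change, with a median of 0.87, yet 0 had an unadjusted p of 0.05 or less. The 16 stayed positive with median centring, where 15 lay above the median of all probes, and with Cy5 alone, but 11 did so in the slide's first row and 0 with groups from the source names. Per mouse the list stood at 0.15, -0.95, 0.45 and -1.37 in control mice 1 to 4 and -1.71, 1.19, 1.77 and 0.57 in BaP mice 1 to 4. It shared its 2 lowest mice with the meningeal genes, but its highest were BaP mice 3 and 2, as for *Igfbp2*, which choroid plexus epithelium also makes. *Kl*, a marker of this epithelium, had 4.98, 3.82, 5.38 and 3.49 in the control mice and 3.49, 5.83, 6.32 and 5.40 in the BaP-exposed mice. *Ttr*, another of its markers, had 7.26, 6.94, 7.63 and 6.84 in the control mice. In the BaP-exposed mice *Ttr* had 5.92, 7.57, 7.58 and 7.75, so its highest were BaP mouse 4 and control mouse 3. Its log2 fold change was 0.041 (standard error 0.36). Relative to all probes it was -0.027 with median centring, and it was 0.79 in the Cy5 channel alone. The mean log2 ratio over the list ran from 1.58 to 3.41 in control mice and from 1.24 to 4.58 in BaP-exposed mice. What part epithelium of the choroid plexus had in the levels of *Igfbp2*, *Igf2*, *Pcolce* and *Lum* was not tested.

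Other lists spanned narrower and wider ranges between mice. The centred medians spanned 0.28 for 12 endothelial genes, 0.44 for 10 mural cell genes, 0.29 for 10 astrocyte genes, 0.17 for 6 microglial genes and 0.51 for 10 genes of hippocampal neurons, against 0.98 for the 33 meningeal genes. The further meningeal fibroblast genes, at 0.46, were within the range of those lists. Other small leucine-rich proteoglycans spanned 0.64, other collagen chains 0.78 and border macrophages 0.86, while erythroid genes spanned 1.14, ependymal genes 1.29 and the choroid plexus 3.48. The mean log2 ratio of the neuronal list was 3.74 to 4.17 over all mice, so the tissue was well above the reference for the genes of its label. Ependymal genes, of the cells that line the ventricle, ran from -0.51 to 0.78. Among erythroid genes, 6 were tested, and all 6 were lower in BaP-exposed mice, at -0.87 in the median on the log2 scale. That median was -1.43 in Cy5 alone, where 1 gene was higher, -0.59 relative to all probes with median centring, -0.38 with Agilent's processed signals and -0.092 with groups from the source names, where again 1 was higher. With loess 2 were called, *Hbb-bs* at -1.90 (standard error 0.14), with an adjusted p of 0.00234 in limma and *Alas2* at -1.05 (standard error 0.12), with an adjusted p of 0.0444 in limma. No probe of the array was called with Agilent's signals, the F test without moderation, either slide row alone or the source names. The centred medians of the erythroid genes were 0.44, 0.28, 0.53 and 0.52 in control mice 1 to 4 and -0.61, -0.56, -0.32 and -0.16 in BaP mice 1 to 4, with no overlap of the groups, whereas those of the meningeal genes did overlap.

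**Figure D5:**
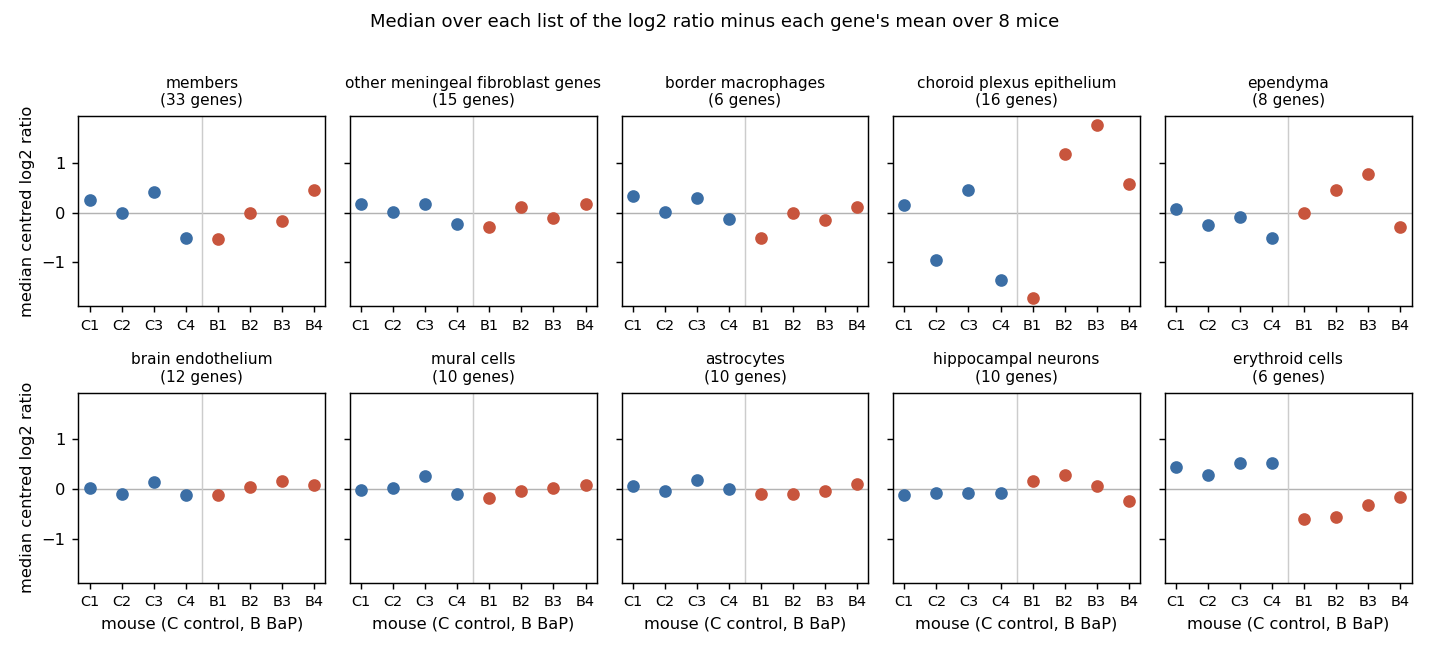
Median over each gene list of the log2 ratio minus the gene's mean over 8 mice (y axis), for control mice 1 to 4 (C1 to C4, blue) and BaP mice 1 to 4 (B1 to B4, red). The 33 members run from -0.54 to 0.45 and the choroid plexus list from -1.71 to 1.77, while the endothelial list stays between -0.12 and 0.16.

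Pathways next to the set were read from lists as well, and none of their genes was called. For other collagen chains 13 of 18 genes were tested, 7 higher and 6 lower, with a median of 0.036. *Col4a1*, a chain of basement membranes, was at -0.38 (standard error 0.16), with an adjusted p of 0.549 in limma, and *Col16a1* at -0.38 (standard error 0.17). For enzymes that process collagen 19 of 19 genes were tested, 6 higher and 13 lower, with a median of -0.086. *P4ha2*, a subunit of prolyl 4-hydroxylase, was at -0.32 (standard error 0.11), with an adjusted p of 0.51 in limma without overlap of the groups, and *Adamts14*, which cleaves procollagen, at -0.40 (standard error 0.14). *Pcolce2*, a relative of *Pcolce*, was at 0.79 (standard error 0.41). Their centred median was -0.22 in BaP mouse 1, against -0.02 to 0.01 in the other BaP-exposed mice. For other small leucine-rich proteoglycans 3 of 8 genes were tested, 0 higher and 3 lower, with a median of -0.19, and *Podn*, the gene of podocan, was at -0.49 (standard error 0.17), with an adjusted p of 0.509 in limma. With median centring, 5 of the collagen chains and 10 of the processing enzymes lay above the median of all probes, and *Col4a1* and *P4ha2* stood at -0.26 and -0.20 relative to it.

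In the insulin-like growth factor axis outside the set, 8 of 13 genes were tested, 7 higher and 1 lower, with a median of 0.11. *Insr*, the insulin receptor, was the 1 gene of this list at an unadjusted p of 0.05 or less, with 0.012, 0.068, 0.20 and 0.20 in the control mice and 0.41, 0.64, 0.43 and 0.54 in the BaP-exposed mice. The groups did not overlap, and the log2 fold change was 0.39 (standard error 0.087), with an adjusted p of 0.381 in limma. In the retinoic acid pathway outside the set, 14 of 15 genes were tested, 6 higher and 8 lower, with a median of -0.12. Of these, 4 had an unadjusted p of 0.05 or less, all higher in BaP-exposed mice, where 4.53% of all probes passed in that direction. They were *Stra6*, a receptor that takes up retinol, at 0.57 (standard error 0.19), *Cyp26b1*, which breaks down retinoic acid, at 0.63 (standard error 0.23), *Rara*, a retinoic acid receptor, at 0.38 (standard error 0.15), and *Aldh1a1*, another enzyme that makes retinoic acid, at 0.32 (standard error 0.14). *Aldh1a2* and *Crabp2*, by comparison, were at -0.26 (standard error 0.44) and -0.34 (standard error 0.33). In the TGF-beta pathway, which drives matrix production in fibroblasts, 13 of 13 genes were tested, 7 higher and 6 lower, with a median of 0.059. *Smad7*, an inhibitor within this pathway, was at 0.31 (standard error 0.11) and the ligand *Tgfb3* at -0.24 (standard error 0.091), the latter without overlap of the groups. With median centring 7 of the 8 genes of the growth factor axis, 6 of 14 of the retinoic acid pathway and 7 of 13 of the TGF-beta pathway lay above the median of all probes, and *Tgfb3* stood at -0.13 relative to it.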

How the data were processed

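Gene expression in the hippocampus was measured on 8 Agilent 2-color arrays, 1 per mouse. Per the file headers, Agilent Feature Extraction 11.0.1.1 read the deposited intensity of each spot and its background in both channels. The deposited files also hold processed intensities, flags and the log10 of the Cy5 to Cy3 ratio. A table of log2 ratios that the authors deposited is LOWESS-normalized according to the methods. Against the scanner's ratio its slope over bright probes was 0.961 to 0.971, which fixes base and direction. The MAANOVA named in the methods was not run here.

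Spot medians were background-corrected by normexp (offset 50) with limma 3.58.1 in R 4.3.3. Control spots were then dropped, outlier spots set to missing, and log2 ratios loess-normalized within arrays and averaged per probe. A probe was tested if it was well above background in Cy5 on 4 arrays or more, which held for 32600 of 55681. The comparison used lmFit and eBayes without covariates, groups being those of the titles, and p-values were adjusted by Benjamini and Hochberg's method over every tested probe. This fit was tested on simulated data, with changes planted only in probes whose SD within groups was below the median. Since 32 of the 33 members lay above that median, the simulation does not show how well changes in them would be found. Exact permutation tests of single genes were 2-sided over 70 assignments. Summaries and plots were made in Python 3.11.15 (pandas 2.3.3, scipy 1.17.1, numpy 2.4.6, matplotlib 3.10.9).

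RefSeq accessions were matched to a gene table of GRCm38.p6 for names only, since the probes were designed on mm9. Of 28685 probes with an accession, 27229 (94.9%) had a name. Named in the text are all members and, from the other lists, genes among the 3 of lowest p, those called and the first 2 of a cell type list, with *Aldh1a1* added after its value was seen. The members, lists and tests were chosen with earlier results of these data known. The mice were separate animals, and their number and, for dim probes, the signal over background limit the precision. Alternatives changed the background correction, the normalization (including the deposited log2 ratios and Cy5 alone), the handling of dim and outlier spots, the test, blocking by replicate number or slide row, the choice of probe, the mice included and the label that gave the group. Comparing mice under other normalizations was added after the data were seen. No other data of the study were analysed here.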

Additional observations from a re-analysis of the deposited data

Results flagged for a closer look

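In 5 of 100 groups of 4 mice checked, over the 33 genes and the gene list medians, 1 mouse stood far from the other 3, and chance alone would give about 5. The value given is the gap to the nearest mouse as a share of the group's range. For *Col6a1* in control mice it was 0.869, with mouse 2 at -1.75 and the others at -2.05 to -2.01. For *Lum* in control mice it was 0.845, with mouse 4 at -0.83 and the others at 0.57 to 0.83. For *Igfbp6* in control mice it was 0.862, with mouse 3 at -0.58 and the others at -0.85 to -0.81. For *Foxc1* in BaP-exposed mice it was 0.887, with mouse 4 at -1.03 and the others at -1.87 to -1.77. For the centred median of the collagen processing enzymes in BaP-exposed mice it was 0.868, with mouse 1 at -0.22 and the others at -0.02 to 0.01. The cause of these gaps was not tested.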

How the results depend on the processing

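No member was called under any setting run, the lowest adjusted p from limma being 0.228, and the median over the members lay between -0.33 and 0.18, on both sides of 0. The signs of single members did depend on the setting, and the cause was not tested: 3 genes, *Col1a1*, *Col5a1* and *Fmod*, kept theirs under all settings. The 3 probes called over the whole array became 5 with no filter on dim probes, 6 in the Cy5 channel alone, 0 with Agilent's processed signals, 0 with the F test without moderation, 0 in either slide row alone (the first row being the 4 mice with matching labels) and 0 with groups from the source names, and 1 to 3 with a mouse left out. The replicate numbers do not pair the mice (correlations of -0.35, 0.03, -0.01 and -0.01 between same-numbered mice), and with the replicate number as a block 3 probes and 0 members were called, with a median over the members of -0.15.

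Log2 fold changes that changed sign were, with median centring, which moved the median of all probes to 0.17, *Col1a2* 0.13, *Col3a1* 0.12, *Col6a1* 0.0098, *Col6a2* 0.0076, *Col6a3* 0.20, *Ogn* 0.23, *Bgn* 0.19, *Fbln1* 0.064, *Nupr1* 0.058, *Igfbp6* 0.029, *Slc47a1* 0.066, *Foxc1* 0.077, *Foxd1* 0.12. Of these 13, 10 lay below that median. In the Cy5 channel alone they were *Col6a3* 0.081, *Ogn* 0.023, *Bgn* 0.030, *Ranbp3l* -0.0092, *Foxd1* 0.15. With Agilent's processed signals *Foxd1* stood at 0.40, and with the mean of a gene's probes *Ranbp3l* at -9.9e-05. In slide row 1 alone, and so in the 4 mice with matching labels, they were *Lum* -0.017, *Pcolce* -0.28, *Islr* -0.23, *Mgp* -0.49, *Serping1* -0.17, *Igf2* -0.12, *Slc6a20a* -0.29, *Ranbp3l* -0.11, *Thbd* -0.022. In slide row 2 alone they were *Col1a2* 0.18, *Col3a1* 0.056, *Col6a3* 0.23, *Ogn* 0.74, *Bgn* 0.026, *Fbln1* 0.46, *Aldh1a2* 0.36, *Slc6a13* 0.40, *Slc22a6* 0.24, *Slc47a1* 0.13, *Gjb2* 0.21, *Crabp2* 0.16, *Foxc1* 0.15, *Foxd1* 0.041. With groups from the source names they were *Dcn* 0.21, *Lum* -0.52, *Pcolce* -0.60, *Islr* -0.46, *Mgp* -0.67, *Serping1* -0.48, *Igf2* -0.47, *Igfbp2* -0.54, *Slc6a20a* -0.37, *Ranbp3l* -0.13, *Osr1* 0.094, *Thbd* -0.27. With each mouse left out in turn, the ranges of those that changed sign were *Col6a3* -0.21 to 0.17, *Ogn* -0.40 to 0.37, *Bgn* -0.18 to 0.089, *Foxd1* -0.11 to 0.13, *Col1a2* -0.30 to 0.068, *Fbln1* -0.57 to 0.15, *Slc47a1* -0.14 to 0.074, *Aldh1a2* -0.67 to 0.0094, *Gjb2* -0.64 to 0.057, *Mgp* -0.21 to 0.56, *Slc6a20a* -0.17 to 0.40, *Ranbp3l* -0.11 to 0.12, *Thbd* -0.12 to 0.49, *Islr* -0.058 to 0.44, *Serping1* -0.060 to 0.54. Those of the other members were *Col1a1* -0.55 to -0.24, *Col3a1* -0.29 to -0.016, *Col5a1* -0.40 to -0.22, *Col6a1* -0.33 to -0.21, *Col6a2* -0.34 to -0.21, *Crabp2* -0.66 to -0.13, *Dcn* -0.68 to -0.19, *Fmod* -0.97 to -0.22, *Foxc1* -0.37 to -0.076, *Igf2* 0.023 to 0.69, *Igfbp2* 0.56 to 1.53, *Igfbp6* -0.44 to -0.18, *Lum* 0.12 to 0.77, *Nupr1* -0.44 to -0.13, *Osr1* -0.53 to -0.24, *Pcolce* 0.037 to 0.79, *Slc22a6* -0.62 to -0.034, *Slc6a13* -0.88 to -0.16. Members with an unadjusted p of 0.05 or less numbered 0 to 10 with a mouse left out (5.31% to 10.7% of all probes), 10 in slide row 1 alone (6.95%) and 2 in row 2 alone (6.14%).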
